A study of Mus musculus with 6 samples.

Results

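The genes described here are 10 members of the hypoxia-inducible factor (HIF) pathway, chosen by name as HIF regulators and as HIF targets outside glycolysis: Hif1a, Vhl, Egln1, Egln2 and Egln3, and Vegfa, P4ha1, P4ha2, Bnip3 and Ak4. All 10 had a row in the deposited table of 14868 genes, and all 10 passed the filter on low values, as did 14864 genes in all. These genes and the further lists below were chosen with earlier results of these data known, so their shares beside those of all genes are a description. Naïve CD4+ T cells, which are helper T cells that have not met antigen, came from wild-type (WT) mice or from mice lacking Ikzf4 (Ikzf4-/-), which encodes Eos, a zinc finger protein of the Ikaros family. Both genotypes had the C57BL/6J strain background, and the labels give no age or sex. The cells grew for 72 h in IMDM with 10% FBS, 1% penicillin-streptomycin and 50 µM 2-mercaptoethanol, with plate-bound anti-CD3 at 5 µg/mL and anti-CD28 at 2 µg/mL. To drive T helper 2 (Th2) differentiation, both genotypes received interleukin-4 at 10 ng/mL and an antibody to interferon gamma at 10 µg/mL. There were 3 total RNA libraries of each genotype. The labels do not say whether these came from separate mice, so p-values measure only the spread between these libraries, which may be technical.

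In cells with enough oxygen, the prolyl hydroxylases PHD2, PHD1 and PHD3, encoded by Egln1, Egln2 and Egln3, hydroxylate HIF-1α, the protein of Hif1a. The von Hippel-Lindau protein, encoded by Vhl, then recognises hydroxylated HIF-1α and marks it for degradation. When oxygen is short, HIF-1α persists, pairs with ARNT and binds DNA at hypoxia response elements. Activated T cells also raise HIF-1α through T cell receptor and mTOR signalling, and much of this control acts on the protein, which RNA levels do not show. Egln1 and Egln3 are themselves HIF targets and so act as feedback.

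The promoters of 4 of the genes are shown because P4ha2, Bnip3 and Egln3 were the members that passed the test between genotypes, and because P4ha1 is the paralogue of P4ha2 that did not. Each sequence is the 250 bases before a RefSeq transcription start on GRCm38.p6, 5′ to 3′ on the gene's strand. The letters ACGTG and GCGTG, the core of the hypoxia response element, are in capitals on either strand (CACGT and CACGC when read on the gene's strand). ACGTG also lies within the E-box CACGTG, so that matches to both cannot be told apart.
P4ha2 (chr11:54100674-54100923, plus strand): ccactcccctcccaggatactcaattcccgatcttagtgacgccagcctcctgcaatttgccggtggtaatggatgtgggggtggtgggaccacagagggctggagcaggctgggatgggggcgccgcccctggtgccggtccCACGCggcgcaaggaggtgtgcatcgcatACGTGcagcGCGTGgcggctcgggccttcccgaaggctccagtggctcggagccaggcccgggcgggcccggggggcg
Bnip3 (chr7:138909507-138909756, minus strand): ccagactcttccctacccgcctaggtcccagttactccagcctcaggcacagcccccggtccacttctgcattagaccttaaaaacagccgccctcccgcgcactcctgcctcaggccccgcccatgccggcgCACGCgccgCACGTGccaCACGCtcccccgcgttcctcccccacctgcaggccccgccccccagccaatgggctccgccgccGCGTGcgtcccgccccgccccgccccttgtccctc
Egln3 (chr12:54203875-54204124, minus strand): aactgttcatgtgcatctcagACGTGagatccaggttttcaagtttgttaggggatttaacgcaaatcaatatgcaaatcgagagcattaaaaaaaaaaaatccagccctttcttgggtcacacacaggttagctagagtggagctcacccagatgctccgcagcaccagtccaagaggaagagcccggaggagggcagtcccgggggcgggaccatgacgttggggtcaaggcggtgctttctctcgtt
P4ha1 (chr10:59323046-59323295, plus strand): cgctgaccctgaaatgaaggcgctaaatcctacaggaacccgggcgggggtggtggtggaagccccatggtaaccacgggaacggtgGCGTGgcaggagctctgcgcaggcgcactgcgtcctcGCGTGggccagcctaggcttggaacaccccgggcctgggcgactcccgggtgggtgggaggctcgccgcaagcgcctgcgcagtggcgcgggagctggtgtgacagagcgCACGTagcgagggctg
The Bnip3 window held 4 separate sites, 1 of them a CACGTG that matched on both strands, the windows of P4ha2 and P4ha1 held 3 each, and that of Egln3 held 1. In GENCODE M21 the P4ha2 window lies inside the gene's span and outside its exons, and 13 bases of the Bnip3 window lie in an exon of a noncoding Bnip3 transcript. The P4ha2 and P4ha1 windows thus held the same number of sites. In windows that also took in the 50 bases after the start (300 bases), 13 of the 15 windows of the 10 genes held at least 1 match, against 43.8% of all 32851 promoter windows. The exceptions were the Vhl window and 1 of the 2 Vegfa windows. The Ak4 windows from 101419039, 101419062 and 101419071 overlap and hold the same sites, which were thus counted more than once. By gene, 9 of the 10 had a match in at least 1 window, against 67.1% of the 10294 tested genes that had a window. Vegfa was counted only through a window inside the gene's span, as its window at the 5′ end of the gene held no match. A match describes letters and is not evidence of binding.

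The estimated depth was 34701390 to 40604346 reads per library, highest in WT replicate 2 and lowest in Ikzf4-/- replicate 2. Ikzf4 itself was examined as a check of the labels. Its normalized read count, which is a read count divided by a scaling factor for its library, was 756, 499.6 and 483 in the WT libraries, in the order of their replicate numbers as throughout, and 25.2, 10.5 and 38.2 in those labelled Ikzf4-/-, so every library matched its label (log2 fold change -4.64, SE 0.37, limma adjusted p = 0.000389). All 10 CD4 T cell and Th2 markers had a row, and their summed level was 91919 to 93332 in WT and 91917 to 94309.8 in Ikzf4-/- libraries. This sum is carried by the abundant genes of the list. Of the 10, 3 were called (limma adjusted p under 0.05), where 1.77% of all genes tested were called. The Th2 cytokine genes Il4 (log2 fold change -0.87, limma adjusted p = 0.0144) and Il13 (-0.82, 0.0450) fell, and Cd5, which encodes a surface receptor of T cells, rose (0.33, 0.0306). Markers of other cells with a row numbered 2 of 2 for CD8 T cells, 2 of 5 for B cells, 1 of 7 for myeloid cells, 1 of 4 for NK cells and 1 of 6 for erythroid and endothelial cells. The defining B cell gene Ms4a1 and the myeloid genes Lyz2 and Csf1r had no row. The summed levels in WT and Ikzf4-/- libraries were 236 to 423 and 232 to 374 for CD8 T cells, 51.1 to 83.6 and 58.6 to 90.4 for B cells, 59.6 to 96.1 and 69.3 to 89.0 for myeloid cells, 149 to 299 and 165 to 284 for NK cells, and 1197 to 1271 and 1089 to 1239.5 for the last list, whose only gene with a row was Pecam1. Xist was at 85.8 and 111 in Ikzf4-/- replicates 2 and 3 and at 4.26 or lower in the other 4 libraries. The Y-linked genes Ddx3y, Eif2s3y, Kdm5d and Uty were at 726 or more in every library of both genotypes, and none was called. The part of Xist in the results was not tested. On the first principal component, with 40.2% of the variance, WT replicate 1 stood apart at -41.3, against -12.5 and -5.26 for the other WT libraries. The Ikzf4-/- libraries were at 11.1, 17.1 and 30.8, with replicate 3 the farthest out.

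HIF pathway RNA was lower in Ikzf4-/- Th2 cells for some of these genes and near WT levels for others. Egln3 fell to 0.379 of its WT level, P4ha2 to 0.424 and Bnip3 to 0.516. These 3 of the 10 genes passed the test (limma adjusted p under 0.05 over all genes tested), all of them lower, where 1.77% of all 14864 genes passed in either direction, 1.20% lower and 0.572% higher. Another 3 genes, Vegfa, Egln1 and Egln2, were lower in every Ikzf4-/- library than in every WT library without passing, so that 6 of the 10 lay lower without overlap, against 12.2% of all genes. The fitted log2 fold change was below 0 for all 10 genes, with a median of -0.35, where the median of all genes was 0.00 and 48.7% were below 0. None of the 10 genes passed without WT replicate 2, without Ikzf4-/- replicate 1 or without Ikzf4-/- replicate 3. The differences themselves kept their direction in all 6 fits without 1 library, with log2 fold changes from -1.68 to -1.02 for Egln3, from -1.53 to -1.04 for P4ha2 and from -1.14 to -0.73 for Bnip3.

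**Figure D1:**
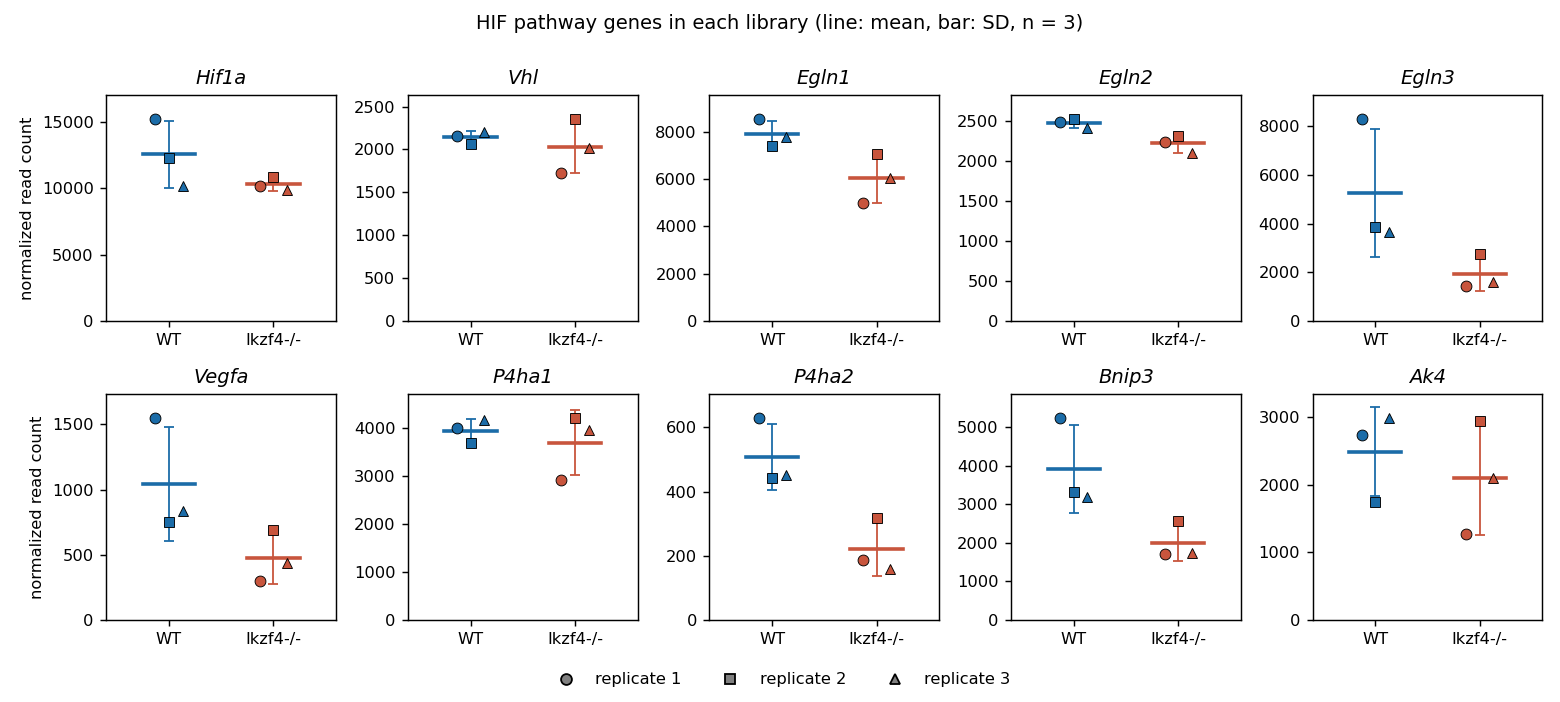
Normalized read count of each of the 10 genes (vertical axis, from 0) in the 3 WT (blue) and 3 Ikzf4-/- (red) libraries, with symbols for the replicate number, a line at the mean and a bar for the SD. Ikzf4-/- replicate 2 (square) is the highest Ikzf4-/- library for all 10 genes, and WT replicate 1 (circle) is the highest WT library for 6.

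Among the regulators, Egln3 changed most. It encodes PHD3, a prolyl hydroxylase whose transcription is raised by HIF (ENSMUSG00000035105, chromosome 12, 54178981 to 54203860, minus strand). Its normalized read count was 8292, 3844 and 3644 in WT libraries, against 1441, 2745 and 1600.4 in Ikzf4-/- libraries. WT replicate 1 stood at 2.21 times the mean of the other WT libraries, but the genotypes did not overlap without it either, since the lowest WT library lay above the highest Ikzf4-/- library. The mean went from 5260.0 ± 2627 to 1929 ± 711 (SD, n = 3 each), and limma gave a log2 difference of -1.40 (SE 0.30, adjusted p = 0.0453). Without WT replicate 1 the adjusted p was 0.0169, and without Ikzf4-/- replicate 3, the highest of the fits without 1 library, it was 0.161. The authors' deposited table, with -1.45 on the log2 scale, gave an adjusted p of 0.0694, above the threshold.

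Egln1 encodes PHD2, the main oxygen sensor of most cells (ENSMUSG00000031987, chromosome 8, 124908587 to 124949324, minus strand). WT libraries held 8555, 7426 and 7784 normalized reads, and Ikzf4-/- libraries 4984, 7097 and 6046. The genotypes did not overlap, although WT replicate 2 and Ikzf4-/- replicate 2 lay close together. The log2 fold change was -0.40 (SE 0.10, 95% interval -0.63 to -0.17), and the limma adjusted p was 0.0802. Leaving out Ikzf4-/- replicate 2 brought it to 0.0375, and the authors' deposited table gave 0.00221. Egln1 was thus called by the authors' deposited table and not by limma, the reverse of Egln3.

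Egln2, which encodes PHD1, differed least among the hydroxylase genes (ENSMUSG00000058709, chromosome 7, 27158658 to 27166802, minus strand). Its values were 2491, 2526 and 2414 in WT and 2245, 2322 and 2099 in Ikzf4-/- libraries. They were tightly spaced within each genotype and did not overlap between them. The log2 fold change was -0.16 (95% interval -0.28 to -0.04), and Egln2 was not called (limma adjusted p = 0.167).

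Hif1a encodes the oxygen-regulated subunit of HIF-1 (ENSMUSG00000021109, chromosome 12, 73901375 to 73947530, plus strand). WT libraries held 15221, 12278 and 10185 normalized reads, and Ikzf4-/- libraries 10173, 10879 and 9871. The WT libraries spread more widely than the Ikzf4-/- libraries, and WT replicate 3 lay below Ikzf4-/- replicate 2. The log2 fold change of -0.27 (95% interval -0.51 to -0.02) was not called (limma adjusted p = 0.241), except without WT replicate 3 (0.0284).

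Vhl (ENSMUSG00000033933, chromosome 6, 113623959 to 113631633, plus strand) stood at 2153, 2061 and 2206 in WT and at 1727, 2352 and 2021 in Ikzf4-/- libraries. The highest and the lowest of the 6 libraries were both Ikzf4-/-. The log2 fold change was -0.08 with a 95% interval from -0.29 to 0.12 (limma adjusted p = 0.695), and it was 0.03 without Ikzf4-/- replicate 1.

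Among the targets, the clearest differences were in P4ha2 and Bnip3. P4ha2 encodes a catalytic subunit of collagen prolyl 4-hydroxylase, an enzyme of the endoplasmic reticulum that is distinct from the PHD oxygen sensors (ENSMUSG00000018906, chromosome 11, 54100095 to 54131665, plus strand). It was at 628, 443 and 452 in WT and 187, 318 and 159.7 in Ikzf4-/- libraries, so the groups stood apart. The mean went from 508 ± 104 to 222 ± 84.8 (SD, n = 3 each). On the log2 scale limma fitted -1.24 (SE 0.23, adjusted p = 0.0303). Fits without 1 library gave adjusted p-values from 0.00802, without Ikzf4-/- replicate 2, to 0.109, without Ikzf4-/- replicate 3. The authors' deposited table gave 0.0137.

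Bnip3 encodes a mitochondrial outer membrane protein that promotes the removal of mitochondria by autophagy (ENSMUSG00000078566, chromosome 7, 138890836 to 138909519, minus strand). Its values were 5228, 3318 and 3189 in WT and 1703, 2565 and 1743 in Ikzf4-/- libraries. As for Egln3, WT replicate 1 was far above the other WT libraries, and these still lay above every Ikzf4-/- library. The mean went from 3912 ± 1142 to 2004 ± 487 (SD, n = 3 each). On the log2 scale limma fitted -0.95 (SE 0.19, adjusted p = 0.0372). The adjusted p was 0.0160 without WT replicate 1, 0.141 without Ikzf4-/- replicate 3. The authors' deposited table gave 0.0394.

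Vegfa encodes a secreted growth factor for blood vessels (ENSMUSG00000023951, chromosome 17, 46016993 to 46032369, minus strand). It stood at 1547, 753 and 833 in WT and at 295, 689 and 436 in Ikzf4-/- libraries. Its difference was of the size of that in P4ha2, with a log2 fold change of -1.15, but the libraries within each genotype were spread more widely (SE 0.30), and it was not called (limma adjusted p = 0.0815). Across the fits without 1 library the adjusted p ran from 0.0531 to 0.223, and the authors' deposited table gave 0.150.

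P4ha1 encodes the other main catalytic subunit of collagen prolyl 4-hydroxylase (ENSMUSG00000019916, chromosome 10, 59323296 to 59373304, plus strand). It was at 3998, 3675 and 4149.9 in WT and 2921, 4194 and 3950.2 in Ikzf4-/- libraries. Ikzf4-/- replicate 1 alone lay below the WT range, and Ikzf4-/- replicate 2 lay above it. The log2 fold change was -0.11 (95% interval -0.36 to 0.14, limma adjusted p = 0.659), and it was 0.05 without Ikzf4-/- replicate 1.

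Ak4 encodes a mitochondrial adenylate kinase (ENSMUSG00000028527, chromosome 4, 101419277 to 101466995, plus strand). Its values were 2742, 1751 and 2984 in WT and 1265, 2946 and 2098 in Ikzf4-/- libraries, so the genotypes overlapped over most of their range. The log2 fold change of -0.29 had a 95% interval from -0.88 to 0.29 (limma adjusted p = 0.615), and it was 0.03 without Ikzf4-/- replicate 1.

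**Figure D2:**
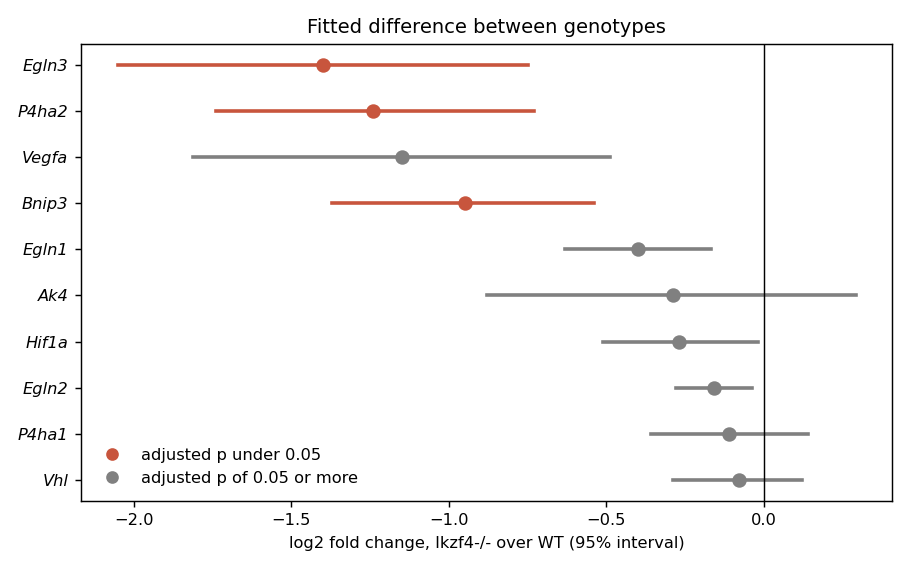
Fitted log2 fold change of Ikzf4-/- over WT (horizontal axis) for each gene, with its 95% interval as a line, in red for genes with an adjusted p under 0.05. Egln3, P4ha2 and Bnip3 are called, and the intervals of Ak4, P4ha1 and Vhl include 0.

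Genes of a family thus differed in how far apart the genotypes stood, and this was examined with the log2 ratio of their values within each library. The ratio of P4ha2 to P4ha1 was -2.67, -3.05 and -3.20 in WT and -3.96, -3.72 and -4.62 in Ikzf4-/- libraries. Every Ikzf4-/- library was below every WT library, with a mean difference of -1.13. The ratio of Egln3 to Egln1 was -0.05, -0.95 and -1.09 in WT and -1.79, -1.37 and -1.92 in Ikzf4-/- libraries, again without overlap. Nor did that of Egln3 to Egln2 overlap (difference -1.24). The ratio of Egln1 to Egln2 had a difference of -0.25 and overlapped. An exact two-sided permutation test of the 6 libraries gave p = 0.10 for each of the first 3 ratios, the smallest value that 3 against 3 libraries allow, and 0.20 for the last. Adjusted by Benjamini-Hochberg over the 4 ratios, these were 0.13 and 0.20 in the exact test, so none could pass 0.05 in this design.

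Per kilobase of annotated exon, the order of the mean levels also differed between genotypes. These lengths take in the exons of all annotated transcripts of a gene, so levels of different genes depend on the annotation. In WT cells the mean normalized count per kilobase was 2204 for Egln1, 2130.5 for Hif1a, 1976 for Egln3 and 1727 for Bnip3, and each of these overlapped the next in its libraries. P4ha1 (958) and Egln2 (885) followed and overlapped each other, then Vhl (714), Ak4 (537), Vegfa (244) and P4ha2 (81.4), none of which overlapped the next. In Ikzf4-/- cells Hif1a (1748) and Egln1 (1681) overlapped at the top of these per-kilobase levels, and P4ha1, Bnip3, Egln2, Egln3, Vhl and Ak4 formed a chain of overlapping neighbours from 897 to 453. Egln3 had rank 3 in WT and rank 6 in Ikzf4-/- cells on this scale. Vegfa (110.4) and P4ha2 (35.5) were again the lowest.

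The order of the Ikzf4-/- libraries was shared by the 10 genes to a large extent, and that of the WT libraries varied more between them. Ikzf4-/- replicate 2 was the highest Ikzf4-/- library for all 10, where it was the highest for 30.9% of all genes tested. Ikzf4-/- replicate 1 was the lowest Ikzf4-/- library for 7 of the 10 (34.4% of all genes) and replicate 3 for the other 3. Among WT libraries, replicate 1 was the highest for 6 (38.4% of all genes), replicate 3 for 3 and replicate 2 for 1. The lowest WT library was replicate 2 for 6 (29.8% of all genes) and replicate 3 for 4 (34.8%). The value of Ikzf4-/- replicate 2 was 1.03 (Egln2) to 2.34 (Vegfa) times that of Ikzf4-/- replicate 1. For Ak4 this ratio was 2.33, which was wider than the fitted difference between genotypes.

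Relative to the WT mean on the log2(value + 1) scale, the 10 genes had a median of -0.80 in Ikzf4-/- replicate 1, -0.36 in replicate 3 and -0.17 in replicate 2, against 0.24, -0.14 and -0.09 in WT replicates 1, 2 and 3. The median over all genes tested was between 0.00 and 0.01 in each library. The genes fell into a set in which Ikzf4-/- replicate 2 was still below every WT library (Egln1, Egln2, Egln3, Vegfa, P4ha2 and Bnip3) and a set in which it lay above 1 WT library (Hif1a), 2 (Ak4) or all 3 (Vhl and P4ha1). Of all genes tested, 23.1% had no overlap in either direction. Ikzf4-/- replicate 2 also had the lowest estimated depth, and the part of depth in this order was not tested. The cell density and the oxygen level of the cultures are not given in the sources used here, and whether they moved with this order was not tested.

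**Figure D3:**
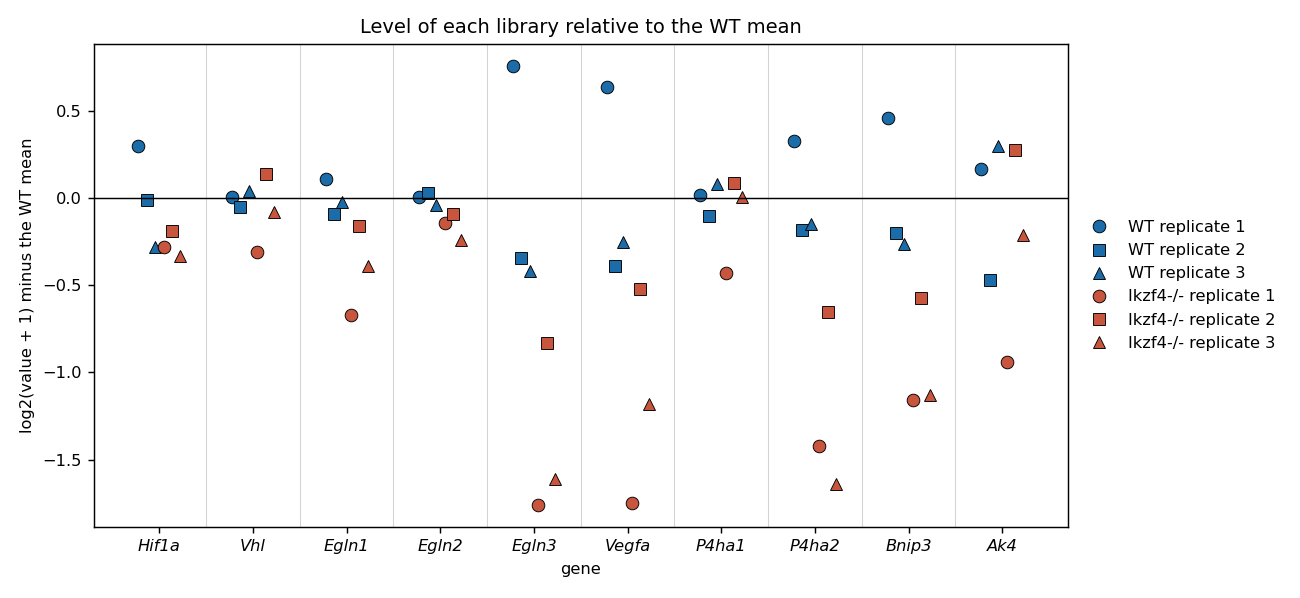
Level of each library relative to the WT mean of the gene, as a difference of log2(value + 1) (vertical axis), for the 10 genes, with WT libraries in blue, Ikzf4-/- libraries in red and symbols for the replicate number. For Egln3, WT replicate 1 lies at 0.76 and Ikzf4-/- replicate 1 at -1.76, while for Vhl and P4ha1 Ikzf4-/- replicate 2 lies above all WT libraries.

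Leaving out libraries changed which of the 10 genes were called, beside a changing share of all genes. Without WT replicate 1, P4ha2, Bnip3 and Egln3 were called, with 1.82% of all genes. Without WT replicate 3 they were called with Hif1a (3.53% of all genes), and without Ikzf4-/- replicate 2 with Egln1 (0.757%). The fits in which none of the 10 was called had 0.508%, 0.325% and 0.135% of all genes called, without WT replicate 2, Ikzf4-/- replicate 1 and Ikzf4-/- replicate 3 respectively, or 75, 48 and 20 genes. On all 6 libraries 263 genes were called, 178 lower and 85 higher (32.3% higher), and with equal library totals 269 were called, 42.8% of them higher. The same 3 of the 10 were called with upper quartile scaling (1.84% of all genes), equal library totals (1.81%), pseudocounts of 0.1 (1.72%) and 10 (1.90%), array weights (3.24%) and a filter at 10 in each library (2.00%). The authors' deposited table called P4ha2, Bnip3 and Egln1, 3 of the 10, where 6.34% of its genes with an adjusted p were called and 3.89% were lower.

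Of 22 further HIF regulators, all with a row, limma called 0, with 7 at an unadjusted p under 0.05 (18.1% of all genes). The authors' deposited table called 3, all lower, which were Hif3a, Siah2 and Os9. Of all its genes with an adjusted p, 3.89% were called lower, and 1 of the 22 had no adjusted p there. The median log2 fold change of the 22 was -0.04. The largest differences, none of them called, were in genes of HIF family members. Hif3a, which encodes an alternative HIF alpha subunit, was at 166, 111 and 129 in WT and 60.5, 112 and 49.2 in Ikzf4-/- libraries (log2 fold change -0.94, limma adjusted p = 0.121, and 0.0427 in the authors' deposited table). Here too Ikzf4-/- replicate 2 was the library within the WT range. Epas1, which encodes HIF-2α, differed by -0.63 on the log2 scale (limma adjusted p = 0.305), with WT values from 938 to 2441. Arnt2, a partner of HIF alpha subunits related to ARNT, was low in all libraries, between 8.04 and 23.4 (log2 fold change -0.64, limma adjusted p = 0.447). Arnt, the partner of HIF-1α, had a log2 fold change of 0.09, and Hif1an, the asparagine hydroxylase that limits HIF activity, of 0.04. These last 2 genes were chosen for their roles after their values were seen.

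Of the further HIF targets outside glycolysis, 37 had a row and 2 of them were called, both lower, where 1.77% of all genes were called. P4hb, which encodes the beta subunit that collagen prolyl 4-hydroxylase shares with P4ha1 and P4ha2 and which is also a protein disulfide isomerase, was at 23028, 21453 and 21349 in WT and 18129.9, 19062 and 18585 in Ikzf4-/- libraries. This was a smaller difference than that of P4ha2 with a much narrower spread (log2 fold change -0.24, SE 0.05, limma adjusted p = 0.0334). Higd1a, which encodes a small mitochondrial protein of the respiratory chain, fell by 0.37 on the log2 scale (limma adjusted p = 0.0474), and it was no longer called with quantile scaling (0.0502) or equal library totals (0.0518). Neither gene was called without WT replicate 2 (adjusted p 0.0652 for P4hb and 0.0878 for Higd1a), Ikzf4-/- replicate 1 (0.105 and 0.123) or Ikzf4-/- replicate 3 (0.115 and 0.154). Nor was P4hb without Ikzf4-/- replicate 2 (0.0785) or Higd1a without WT replicate 1 (0.0667). Bnip3l, the paralogue of Bnip3, differed by -0.40 on the log2 scale without overlap and was not called (limma adjusted p = 0.0616), a gene singled out after its values were seen. Over the 37 genes the median log2 fold change was -0.17, with 29 below 0 (48.7% of all genes), 12 with every Ikzf4-/- library below every WT library (12.2%) and 1 with every one above (11.0%). The authors' deposited table called 8, of which 7 were lower, and 3 of the 37 had no adjusted p there. Of all its genes with an adjusted p, 6.34% were called and 3.89% were lower.

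The same order of the Ikzf4-/- libraries was seen in many of these targets. Ikzf4-/- replicate 2 was the highest Ikzf4-/- library for 28 of the 37 (75.7%) and replicate 1 the lowest for 24 (64.9%), where the shares of all genes were 30.9% and 34.4%. Among the 22 further regulators, Ikzf4-/- replicate 2 was highest for 8 (36.4%). Ddit4, a stress-induced inhibitor of mTOR signalling singled out after its values were seen, was at 3484, 7484 and 5727 in Ikzf4-/- libraries and 7134, 7198 and 7897 in WT libraries, so that replicates 1 and 3 lay below the WT range and replicate 2 within it.

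Of 22 glycolytic HIF targets, 8 were called, all lower (1.20% of all genes were called lower), and the median log2 fold change of the 22 was -0.36. The called genes had smaller fold changes than Egln3, P4ha2 and Bnip3, from -0.42 (Eno1, the gene of enolase 1) to -0.28 (Aldoa, that of aldolase A). Among them was Ldha, the lactate dehydrogenase A gene (log2 fold change -0.36, SE 0.06, limma adjusted p = 0.0246). With quantile scaling 6 of the 22 were called. Eno1 (log2 fold change -0.25, adjusted p = 0.116) and Pkm, the pyruvate kinase gene (-0.13, 0.271, against -0.37 and 0.0258), were no longer called by limma, while Ldha (-0.20) and Gapdh (-0.21, against -0.36) were called with smaller differences. The number called was 0 without WT replicate 2, Ikzf4-/- replicate 1 or Ikzf4-/- replicate 3. Ikzf4-/- replicate 2 was the highest Ikzf4-/- library for 20 of these 22 (90.9%).

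**Figure D4:**
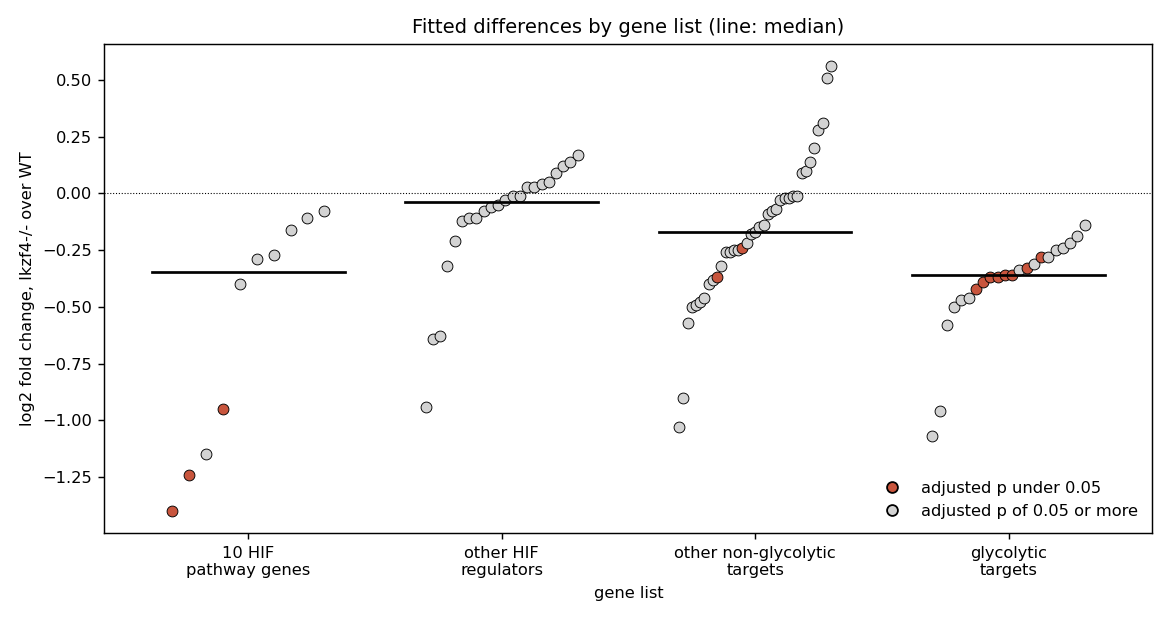
Fitted log2 fold change of Ikzf4-/- over WT (vertical axis) for the 10 genes, 22 other regulators, 37 other targets outside glycolysis and 22 glycolytic targets, with a line at each median and called genes in red. The medians are -0.35, -0.04, -0.17 and -0.36.

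The genes most like the 5 targets were sought by Pearson correlation over the 6 libraries with the mean of their z-scored values, among 2453 genes whose mean was 50 or more and whose SD on the log2 scale was 0.2 or more. This mean profile was 1.05, 0.07 and 0.59 in WT and -1.42, 0.30 and -0.59 in Ikzf4-/- libraries. It averages unlike patterns. Ikzf4-/- replicate 2 lay above WT replicate 2 in the profile, as in P4ha1 and Ak4. In Vegfa, P4ha2 and Bnip3 it lay below every WT library. The 5 highest were Plcxd1 (r = 0.999), Zfp395 (0.994), Slc2a1 (0.992), Vldlr (0.990) and Fam102a (0.988). The 6 points share genotype and library, and the genes were picked as the highest of many, so the values are a description. Zfp395 and Vldlr were on the list of further targets, and Slc2a1, which encodes the glucose transporter GLUT1, on that of glycolytic targets. Plcxd1 was at 857, 552 and 718 in WT and 277, 606 and 391 in Ikzf4-/- libraries. None of the 5 was called, with limma adjusted p-values from 0.121 to 0.197, and in each Ikzf4-/- replicate 2 lay above at least 1 WT library.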

How the data were processed

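Total RNA of 3 WT and 3 Ikzf4-/- libraries was analysed from the authors' deposited table. Per the submitters' processing notes, Trimmomatic 0.36, STAR 2.5.2b and DESeq2 were used with GRCm38 (mm10). The counting tool, its use of strand and the annotation are not given in the sources used here. The deposited values of each library are a never-negative signal, read as normalized counts: 100.0% of them were whole multiples of 1 step per library (tolerance 0.1 of a step), from which depth was estimated. The authors' log2 fold changes, p-values and adjusted p-values are in the same deposited table. No count test was run, and the reads recovered from the steps were used for depth alone. The steps nearest 1 were those of Ikzf4-/- replicates 1 (1.0088) and 3 (1.0046).

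Values were transformed to log2(value + 1), which understates changes of low genes, and genes with a mean of at least 10 were kept (14864 of 14868). A model with genotype alone was fitted with limma 3.58.1 (R 4.3.3, limma-trend, two-sided, Benjamini-Hochberg over all genes tested, called under 0.05). Alternatives were quantile, upper quartile and equal-total scaling, pseudocounts of 0.1 and 10, array weights, a minimum of 10 per library, no filter, the replicate number as a block, each library left out, and the authors' table. Members and lists were chosen with earlier results of these data known. Named genes were Ikzf4, all members, called genes of each further list (the 3 largest differences where none was called) and the 5 genes most like the targets. Older symbols of listed genes were not counted as further genes. Gene positions and exon lengths are from GENCODE M21 (GRCm38), matched by identifier. Promoters are from RefSeq (GRCm38.p6), matched by symbol for all 10 members. A further marker gene is not reported here.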

Additional observations from a re-analysis of the deposited data

How the results depend on the processing

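Among limma refits of the 10 genes, 136 kept direction and side of the threshold, 9 lost a call, 2 gained one and 3 changed sign, the last all without Ikzf4-/- replicate 1: Vhl (0.03), P4ha1 (0.05) and Ak4 (0.03), none of them called. Without 1 library their log2 fold changes ran from -0.20 to 0.03, from -0.21 to 0.05 and from -0.58 to 0.03. P4ha2, Bnip3 and Egln3 were called under all 8 other limma settings that kept 6 libraries and had no block, and the number of the 10 called ran from 0 to 4 without 1 library. Over all genes the calls ran from 20 to 523 without 1 library, against 263, and were 482 with array weights and 815 in the authors' deposited table. Further regulators called were 0 in the reported fit, 1 with quantile scaling, 3 in the authors' deposited table and 0 to 1 without 1 library. Further targets called were 2, against 1 with quantile scaling, 1 with equal library totals, 8 in the authors' deposited table and 0 to 5 without 1 library. Glycolytic targets called ran from 0 to 12 without 1 library, against 8. The cause of these changes in number was not tested, nor was the part of the smaller number of samples in fits without 1 library. The replicate block gave 754 called genes, 2 further regulators and 5 further targets. Of the regulators named, it called Epas1 (adjusted p = 0.00478 with limma), which was lower in the Ikzf4-/- library than in the WT library of the same number for all 3 numbers. Same-numbered libraries deviated with correlations of 0.145, 0.0122 and 0.142, and libraries of different number with correlations from -0.163 to 0.0491. The labels name no pairs, so the reported fit has genotype alone. Whether the libraries were paired was not tested. The lowest value of the 10 genes in any library was 159.7, and the part of depth in their differences was not tested.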
